A study of Mus musculus with 4 samples.

Results

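The 44 genes described here encode the machinery that copies DNA and the enzymes that supply its building blocks. They were chosen by symbol: 10 origin licensing genes, 6 of helicase activation, 4 of DNA polymerase alpha with its primase, and 5 of polymerases delta and epsilon. The others are 6 genes of the sliding clamp and its loader, 2 of lagging strand maturation, 3 subunits of the single-strand binding protein RPA, 4 enzymes of deoxynucleotide supply and 4 regulators of the step from G1 into S phase. All 44 were among the 16846 genes listed, and all 44 were among the 12115 that passed the filter on low counts.

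RNA was sequenced from HT22, an immortalised mouse line of hippocampal origin, in 4 groups. They are cells that overexpress the long noncoding RNA Ntoco, cells with the empty vector, cells with a short hairpin RNA (shRNA) that knocks Ntoco down, and cells with a control shRNA. All samples carry HT22 as cell line and source, but the sample titles number the cells HT25 (overexpression), HT24 (vector), HT23 (knockdown) and HT22 (control), and all were taken as HT22. The labels write the overexpression construct as Lv-Ntoco and the knockdown as sh-Ntoco, and they name no promoter, clone, time after delivery or further treatment. The column names of the tables call the empty vector pcDNA, while the overexpression label has Lv, and they write AK where the labels have Ntoco, so columns were matched to groups by role and the way of delivery is uncertain. The labels list 1 sample a group, while the tables hold 2 libraries a group, and nothing says that these came from separate cultures, so p-values measure the spread between libraries, which may be technical. Ntoco itself was not analysed here, and the labels were therefore not checked against its level. The study set out to find signalling pathways linked to Ntoco.

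Total counts lay between 18452588 and 19859041 a library. Of 14 neuron markers, 9 were listed and 1, Camk2a, passed the filter; Map2, Tubb3, Nefl, Stmn2, Slc17a7, Gad1 and Syt1 had under 10 counts in every library. Apart from Camk2a, the neuronal origin of the line was thus not visible in these markers. Of 8 fibroblast markers, 6 passed the filter, and the list summed to 2908 to 3040 CPM (counts scaled by library size) in overexpressing libraries, 2487 to 3544 CPM in vector libraries, 2443 to 6676 CPM in knockdown libraries and 4531 to 4956 CPM in shRNA control libraries, while Dcn and Lum had under 10 counts in every library. Col1a2, Col1a1 and Fn1 made up most of the fibroblast sum, while Col3a1 had at most 3.14 CPM, in knockdown library 1. The part of other cell types in the results below was not tested.

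Before S phase, the origin recognition complex, Cdc6 and Cdt1 load rings of Mcm2 to Mcm7 onto DNA; Cdc45 and the GINS complex then turn each ring into a working helicase. Primase and polymerase alpha lay down primers, polymerases epsilon and delta extend them on the clamp Pcna, and Fen1 and Lig1 join the pieces of the lagging strand. Many of these genes are textbook targets of E2F transcription factors, which the Rb protein restrains until cyclins D and E act, and their RNA is a common measure of how much a culture is proliferating.

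Per gene length, these were well expressed genes. The median level of the 44, in FPKM (fragments per length of gene and per size of library) averaged over libraries, was 35.7 FPKM, against 9.62 FPKM over all genes tested. The highest mean of the 4 groups was that of Rrm2, the small subunit of ribonucleotide reductase, at 198 FPKM, then Pcna at 187 FPKM, the cyclin gene Ccnd1 at 158 FPKM, Rrm1 at 114 FPKM and Mcm3 at 112 FPKM. The 6 subunits of the Mcm ring lay within about a factor of 2 of each other, between 53.5 FPKM for Mcm7 and 112 FPKM for Mcm3. The lowest were Pold1 at 9.92 FPKM, Orc1 at 8.90 FPKM and Gins3 at 7.28 FPKM, close to the median of all genes.

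In cells overexpressing Ntoco, 39 of the 44 genes had a fitted log2 ratio above 0 against empty vector (49.5% of all genes tested did), with a median of 0.38 beside -0.01 over all genes tested. Both overexpressing libraries lay above both vector libraries for 30 of the 44 genes, where 24.1% of all genes tested did so, and below both for 0, where 23.1% of all genes did. The ratios ran between -0.11 for Ccnd1 and 1.40 for the thymidine kinase gene Tk1. None passed edgeR's quasi-likelihood test after Benjamini-Hochberg adjustment over all genes (0 of 44 at 0.05, background 0%, lowest adjusted p 0.598), and DESeq2 called 0. At an unadjusted p under 0.05 there were 6 higher and 0 lower in edgeR, where 3.53% of all genes were higher and 4.09% lower, and 7 in DESeq2 (1089 of the 12115 genes tested). The 6 were Prim1, Pold2, Rfc4, Fen1, Rrm1 and Tk1. With any 1 library left out, the median ratio of the 44 genes lay between 0.33 and 0.45. In bulk RNA, a different share of cells in S phase and a different amount of these RNAs per cell cannot be told apart.

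In Ntoco knockdown cells, 41 of the 44 genes had a ratio below 0 against shRNA control (49.4% of all genes tested did), with a median of -0.29 beside 0.01 over all genes tested. Both knockdown libraries lay below both control libraries for 9 of the 44, where 14.1% of all genes did so, and above both for 0, where 15.1% did. The 9 were Cdc45, Gins1, Pola2, Prim1, Prim2, Pold1, Pold3, Pole and Ccnd1. The count was 34 without knockdown library 1, 12 without knockdown library 2, 11 without control library 1 and 37 without control library 2, where 39.3%, 32.5%, 26.9% and 30.1% of all genes did so. In edgeR 0 of 44 passed the adjusted threshold (background 0%, lowest adjusted p 0.992), and 3 were lower and 0 higher at an unadjusted p under 0.05 (Prim1, Pole and Ccnd1), where 1.61% of all genes were lower and 1.51% higher. DESeq2 called 0 of the 44, with 2 at an unadjusted p under 0.05. Over the 12115 genes tested it called 15, with 436 at that level. The knockdown median changed with the library left out. It was -0.05 without knockdown library 2 and -0.04 without control library 1. Without knockdown library 1 it was -0.56, and without control library 2 it was -0.47. Library 1 was the higher for 40 of the 44 genes in the knockdown group and for 41 in the control group. Same-numbered knockdown and control libraries deviated together with a correlation of 0.355 over all genes tested. Whether same-numbered libraries belong together is not known. The plot of fitted ratios gives both comparisons gene by gene.

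**Figure D1:**
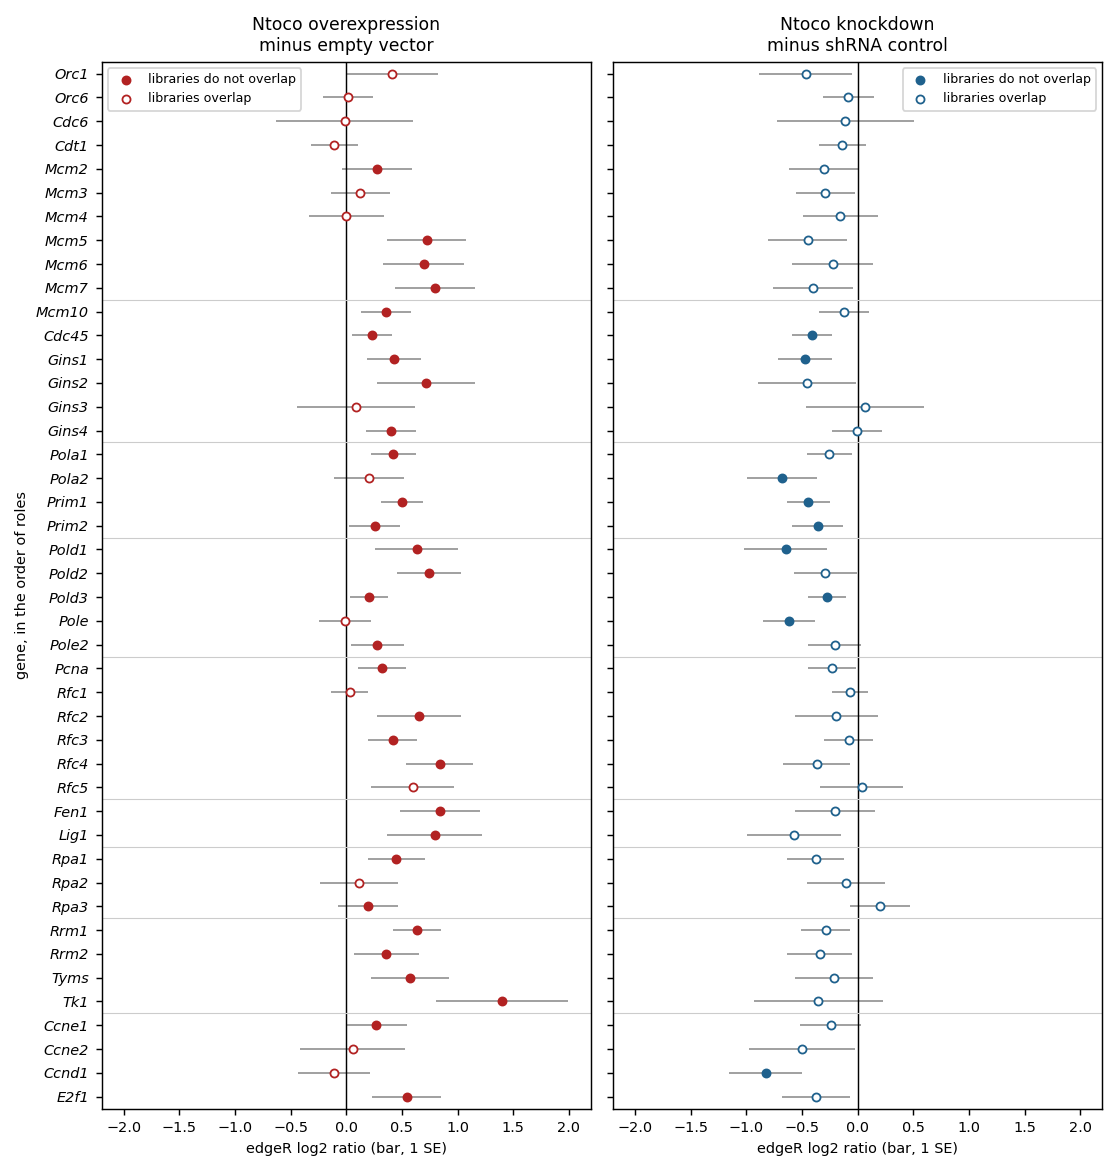
edgeR log2 ratios of the 44 genes in the order of their roles (rows; horizontal bars, 1 SE), for Ntoco overexpression over empty vector on the left and Ntoco knockdown over shRNA control on the right. Filled points mark genes whose libraries do not overlap between the groups: 30 on the left, all to the right of 0, and 9 on the right, all to the left of 0.

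Beside the counts by role that follow stand the shares of all genes tested that were non-overlapping. These were 24.1% higher and 23.1% lower in overexpression, and 15.1% higher and 14.1% lower in the knockdown. No role was tested as a group. Among the licensing genes, the overexpression ratio had a median of 0.20, and 4 of 10 (Mcm2, Mcm5, Mcm6 and Mcm7) had libraries above both vector libraries. Their knockdown median was -0.26, and 0 of 10 lay outside the control libraries. Mcm7, a ring subunit (Entrez Gene 17220, chr5:138164583-138172111, GRCm38), had 206 and 174 CPM in overexpressing libraries and 117 and 102 CPM in vector libraries. It had 186 and 86.9 CPM in knockdown libraries and 218 and 144 CPM in control libraries. The overexpressing libraries lay above the vector ones (log2 ratio 0.80, SE 0.36, edgeR adjusted p 0.598), while the knockdown libraries straddled the lower control library (log2 ratio -0.40, SE 0.36). Of the other ring subunits, Mcm5 and Mcm6 had overexpression ratios of 0.72 and 0.69 without overlap, and Mcm3 and Mcm4 had 0.12 and -0.0023 with overlap; differences between subunits were not tested.

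Mcm2 (Entrez Gene 17216, chr6:88883474-88898780) had 235 and 252 CPM in overexpressing libraries and 223 and 178 CPM in vector libraries. It had 222 and 134 CPM in knockdown libraries and 274 and 166 CPM in control libraries. Its overexpression ratio was 0.28 (SE 0.31) and its knockdown ratio -0.31 (SE 0.31), neither larger than its error. Cdc6, the loader of the ring (Entrez Gene 23834, chr11:98907709-98923942), had 45.6 and 69.3 CPM in overexpressing libraries against 93.3 and 22.8 CPM in vector libraries, and 50.5 and 46.3 CPM in knockdown libraries against 72.4 and 32.3 CPM in control libraries. In both pairs the libraries of the control group enclosed those of the Ntoco group, and the ratios were -0.01 (SE 0.62) in overexpression and -0.11 (SE 0.62) in the knockdown. Orc1, Orc6, Cdt1, Mcm3 and Mcm4 also overlapped in both comparisons.

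The promoters of 4 licensing genes are shown for the E2F-type letters they hold. The letters searched, on both strands, were TTTGGCGC, TTTCGCGC, TTTCCCGC and TTTGCCGC, in RefSeq windows of 250 bases before and 50 after an annotated transcript start (GRCm38.p6). That start need not be the outer end of the gene. The Cdc6 window lies wholly inside the gene, which begins at base 98907709, and the starts used for Mcm5, Mcm7 and Tk1 also lie inside. The 35 genes with a window had 40 windows, and a gene counted if any of its windows held the letters. They occurred in 14 of the 35 genes with a window (40%), against 4.65% of the 9674 tested genes with a window and 2.6% of the 27025 genes in the table. The CCAAT box was present in 21 of 35 (60%), against 43.7% of the tested genes, and the letters TTTGAA or TTCGAA, the cell cycle homology region, in 7 of 35 (20%), against 16.9%. In the windows below, capitals mark E2F-type letters on either strand, overlapping matches running together. The windows are chr8:75109259-75109558 on the plus strand for Mcm5, chr1:128359656-128359955 on the minus strand for Mcm6, chr5:138171834-138172133 on the minus strand for Mcm7 and chr11:98907901-98908200 on the plus strand for Cdc6.
Mcm5: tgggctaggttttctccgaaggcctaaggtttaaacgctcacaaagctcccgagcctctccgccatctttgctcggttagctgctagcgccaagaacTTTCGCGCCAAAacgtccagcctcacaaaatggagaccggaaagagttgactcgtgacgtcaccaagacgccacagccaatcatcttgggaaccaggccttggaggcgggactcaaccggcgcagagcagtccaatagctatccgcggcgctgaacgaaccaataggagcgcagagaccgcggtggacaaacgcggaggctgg
Mcm6: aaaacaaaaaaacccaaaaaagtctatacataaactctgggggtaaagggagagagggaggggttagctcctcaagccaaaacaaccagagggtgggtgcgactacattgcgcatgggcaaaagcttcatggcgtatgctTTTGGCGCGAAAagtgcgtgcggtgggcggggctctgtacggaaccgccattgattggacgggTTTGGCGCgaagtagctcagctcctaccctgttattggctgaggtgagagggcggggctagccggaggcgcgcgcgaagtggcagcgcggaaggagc
Mcm7: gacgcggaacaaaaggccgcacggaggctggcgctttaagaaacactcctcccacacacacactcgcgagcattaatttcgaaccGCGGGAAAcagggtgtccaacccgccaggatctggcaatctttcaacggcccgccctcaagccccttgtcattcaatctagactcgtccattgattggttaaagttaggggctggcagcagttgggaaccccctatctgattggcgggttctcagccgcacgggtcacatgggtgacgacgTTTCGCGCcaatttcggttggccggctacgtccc
Cdc6: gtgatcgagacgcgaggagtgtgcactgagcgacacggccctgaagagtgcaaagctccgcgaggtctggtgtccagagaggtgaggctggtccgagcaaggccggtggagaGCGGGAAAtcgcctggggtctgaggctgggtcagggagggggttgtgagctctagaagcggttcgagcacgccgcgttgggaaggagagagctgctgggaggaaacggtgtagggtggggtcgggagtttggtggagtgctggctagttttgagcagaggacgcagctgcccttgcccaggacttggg
In Mcm5 a match on the plus strand, starting at -153 with the first base of the transcript counted as 0, ran into one on the other strand at -149, and in Mcm6 a like pair began at -110 with a further match at -47. The Mcm7 window shown held 1 match at -165 and 1 at 16, and Cdc6 held 1 match at -138. A further Mcm7 window, chr5:138171217-138171516 on the minus strand, held 0 matches and is not shown. The 14 genes with the letters had a median overexpression ratio of 0.42, with 9 non-overlapping and higher, and the 21 without had 0.36, with 16. The 9 genes with no window had 0.25, with 5. Of all genes tested, 24.1% were non-overlapping and higher. In the knockdown the medians were -0.26 with the letters, -0.29 without and -0.46 with no window. A match describes letters and not a bound site, and no difference between the 14 and the 21 was tested.

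Helicase activation genes had a median ratio of 0.38 in overexpression, with 5 of 6 non-overlapping and higher (Mcm10, Cdc45, Gins1, Gins2 and Gins4), and -0.27 in the knockdown, with 2 of 6 lower (Cdc45 and Gins1). Gins2 (Entrez Gene 272551, chr8:120581266-120589075) had 82.4 and 70.9 CPM in overexpressing libraries and 43.2 and 50.2 CPM in vector libraries. Levels were 58.2 and 23.9 CPM in knockdown libraries and 74.2 and 38.5 CPM in control libraries. Its overexpressing libraries were the only pair without overlap with its own control (log2 ratio 0.72, SE 0.44), and the knockdown ratio was -0.46 (SE 0.44). Gins1 (Entrez Gene 69270, chr2:150909556-150931280) had 41.1 and 32.4 CPM in overexpressing libraries and 26.2 and 28.5 CPM in vector libraries. Its knockdown libraries held 28.4 and 20.1 CPM, against 35.1 and 32.2 CPM in control libraries. Both comparisons were without overlap, at 0.43 (SE 0.24) in overexpression and -0.48 (SE 0.24) in the knockdown. Gins3, the GINS subunit with the lowest level, had ratios of 0.09 in overexpression and 0.07 in the knockdown.

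Of the polymerase alpha and primase genes, 3 of 4 were non-overlapping and higher in overexpression (Pola1, Prim1 and Prim2, median of the 4 ratios 0.34) and 3 of 4 lower in the knockdown (Pola2, Prim1 and Prim2, median -0.40). Prim1, the catalytic primase subunit (Entrez Gene 19075, chr10:128015215-128030030), had 57.1 and 69.5 CPM in overexpressing libraries and 43.9 and 45.6 CPM in vector libraries. It had 51.1 and 43.6 CPM in knockdown libraries and 63.3 and 65.6 CPM in control libraries. The groups did not overlap in either comparison: log2 ratio 0.50 in overexpression (SE 0.19, unadjusted p 0.0311, edgeR adjusted p 0.598) and -0.44 in the knockdown (SE 0.19, unadjusted p 0.0490, edgeR adjusted p 0.992). Pola2, the accessory subunit of polymerase alpha (Entrez Gene 18969, chr19:5940543-5964238), had 60.4 and 66.1 CPM in overexpressing libraries against 44.2 and 65.8 CPM in vector libraries, and 53.8 and 32.4 CPM in knockdown libraries against 80.8 and 57.0 CPM in control libraries. It overlapped in overexpression (0.20, SE 0.31) and was apart in the knockdown (-0.68, SE 0.32).

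Of the 5 genes of polymerases delta and epsilon, 4 were non-overlapping and higher in overexpression (Pold1, Pold2, Pold3 and Pole2, median of the 5 ratios 0.28) and 3 lower in the knockdown (Pold1, Pold3 and Pole, median -0.29). Pold2 (Entrez Gene 18972, chr11:5872180-5878256) had 61.0 and 52.3 CPM in overexpressing libraries against 27.5 and 40.2 CPM in vector libraries, and 49.6 and 31.3 CPM in knockdown libraries against 46.7 and 52.4 CPM in control libraries. Its overexpression ratio was 0.74 (SE 0.29) and its knockdown ratio, with overlapping libraries, -0.29 (SE 0.28). Pold1, the catalytic subunit of polymerase delta (Entrez Gene 18971, chr7:44532744-44548815), had 45.7 and 48.4 CPM in overexpressing libraries and 26.3 and 34.4 CPM in vector libraries. Levels were 58.2 and 24.9 CPM in knockdown libraries and 71.8 and 58.3 CPM in control libraries. Knockdown library 1 of Pold1 was just under the lower control library and library 2 far below it, and the ratios were 0.63 (SE 0.37) in overexpression and -0.65 (SE 0.37) in the knockdown. Pole, the catalytic subunit of polymerase epsilon, had an overexpression ratio of -0.01 (SE 0.23) and a knockdown ratio of -0.62 (SE 0.24).

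The clamp and clamp loader genes had a median overexpression ratio of 0.51, with 4 of 6 non-overlapping and higher (Pcna, Rfc2, Rfc3 and Rfc4), and a median knockdown ratio of -0.13 with 0 of 6 outside the controls. Rfc4, a loader subunit (Entrez Gene 106344, chr16:23113948-23127730), had 72.0 and 61.7 CPM in overexpressing libraries and 37.7 and 37.0 CPM in vector libraries. Its knockdown libraries held 64.5 and 33.4 CPM, against 67.3 and 59.1 CPM in control libraries. The vector libraries were close together and well under the overexpressing ones (log2 ratio 0.84, SE 0.30, unadjusted p 0.0240, edgeR adjusted p 0.598). Pcna, the clamp (Entrez Gene 18538, chr2:132249286-132253180), had 279.8 and 248 CPM in overexpressing libraries and 235 and 187 CPM in vector libraries. It had 234 and 197 CPM in knockdown libraries and 285 and 219.8 CPM in control libraries. The ratios of Pcna were small, 0.32 (SE 0.22) in overexpression and -0.23 (SE 0.22) in the knockdown. Rfc1, the large loader subunit, lay between 155 and 185 CPM in all libraries, with ratios of 0.03 in overexpression and -0.07 in the knockdown.

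Both genes of lagging strand maturation were non-overlapping and higher in overexpression, Fen1 at a log2 ratio of 0.84 (SE 0.36) and Lig1 at 0.80 (SE 0.43). Fen1, a flap endonuclease (Entrez Gene 14156, chr19:10199132-10204393), had 59.2 and 95.1 CPM in overexpressing libraries and 56.4 and 29.7 CPM in vector libraries. Levels were 95.2 and 75.3 CPM in knockdown libraries and 113 and 83.6 CPM in control libraries. The lower overexpressing library was barely above the higher vector library, and the knockdown and control libraries overlapped (log2 ratio -0.20, SE 0.36). For Lig1, the DNA ligase, the knockdown ratio was -0.57 (SE 0.42), with 153 and 55.6 CPM in knockdown libraries and 176 and 134 CPM in control libraries, which overlapped.

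Of the RPA subunits, Rpa1 and Rpa3 were non-overlapping and higher in overexpression, and 0 of 3 lay outside the controls in the knockdown. Rpa1, the large DNA-binding subunit (Entrez Gene 68275, chr11:75300259-75348454), had 315 and 290.0 CPM in overexpressing libraries and 217 and 226 CPM in vector libraries. Its knockdown libraries held 273 and 165 CPM, against 314 and 256 CPM in control libraries. The overexpression ratio of Rpa1 was 0.45 (SE 0.25) and its knockdown ratio -0.38 (SE 0.25). The overexpression ratios of Rpa2 and Rpa3 were 0.11 and 0.19, and Rpa3 had the highest knockdown ratio of the 44 genes, 0.20 (SE 0.27).

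All 4 enzymes of deoxynucleotide supply were non-overlapping and higher in overexpression, with a median ratio of 0.60, and all 4 overlapped in the knockdown, with a median of -0.31. Tk1, the cytosolic thymidine kinase that salvages thymidine (Entrez Gene 21877, chr11:117815519-117826087), had 104 and 80.6 CPM in overexpressing libraries and 19.6 and 50.3 CPM in vector libraries. It had 117 and 37.4 CPM in knockdown libraries and 121 and 76.4 CPM in control libraries. Its overexpression ratio was the largest of the 44 genes, 1.40 (SE 0.59, 2.63-fold, unadjusted p 0.0469, edgeR adjusted p 0.598), and vector library 1 was the lowest of all libraries. Its knockdown ratio was -0.35 (SE 0.58), with knockdown library 1 beside the higher control library and knockdown library 2 under the lower one. The RefSeq window of Tk1 (chr11:117825965-117826264, minus strand, GRCm38.p6) is shown because this gene had the largest ratio and the window held none of the E2F-type, CCAAT or cell cycle homology region letters:
Tk1: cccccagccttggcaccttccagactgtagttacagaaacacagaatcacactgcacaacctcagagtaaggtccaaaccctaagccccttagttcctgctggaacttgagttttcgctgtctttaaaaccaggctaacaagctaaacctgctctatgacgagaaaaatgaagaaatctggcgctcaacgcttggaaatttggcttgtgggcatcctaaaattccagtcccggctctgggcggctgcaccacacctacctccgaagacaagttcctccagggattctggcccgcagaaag
Rrm1 and Rrm2, the subunits of ribonucleotide reductase, had high levels, with libraries close together in the overexpression and vector groups. Rrm2 (Entrez Gene 20135, chr12:24708254-24714146) had 479.7 and 481 CPM in overexpressing libraries and 374 and 375 CPM in vector libraries. Levels were 392 and 379 CPM in knockdown libraries and 649.6 and 327 CPM in control libraries. The overexpressing and vector pairs did not overlap (log2 ratio 0.36, SE 0.29), and the control libraries enclosed those of the knockdown (log2 ratio -0.34, SE 0.29). Rrm1 had 584 and 581 CPM in overexpressing libraries and 374 and 377 CPM in vector libraries, a log2 ratio of 0.63 (SE 0.22), and its unadjusted p of 0.0197 was the lowest of the 44 genes in that comparison.

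Among the G1/S regulators the lowest knockdown ratio of the 44 genes was that of Ccnd1, which encodes cyclin D1, the cyclin that couples growth signals to Rb (Entrez Gene 12443, chr7:144929931-144939831). Ccnd1 had 492 and 308 CPM in knockdown libraries against 872 and 547 CPM in control libraries, and 606 and 625 CPM in overexpressing libraries against 527 and 805 CPM in vector libraries. Both knockdown libraries lay below both control libraries (log2 ratio -0.83, SE 0.33, 0.564-fold, unadjusted p 0.0359, edgeR adjusted p 0.992), whereas the vector libraries enclosed the overexpressing ones (log2 ratio -0.11, SE 0.32). The E2F gene E2f1 (Entrez Gene 13555, chr2:154559400-154569892) had 131 and 105 CPM in overexpressing libraries and 70.7 and 91.3 CPM in vector libraries. Its knockdown libraries held 135 and 75.3 CPM, against 154 and 118 CPM in control libraries. It was apart in overexpression (log2 ratio 0.54, SE 0.31) and overlapped in the knockdown (-0.37, SE 0.31). Ccne1, which encodes cyclin E1 (Entrez Gene 12447, chr7:38097984-38107490), had 55.7 and 60.8 CPM in overexpressing libraries and 55.5 and 41.1 CPM in vector libraries. It had 57.5 and 57.3 CPM in knockdown libraries and 85.5 and 50.5 CPM in control libraries. The lower overexpressing library was just above the higher vector library, and the ratios of Ccne1 were 0.27 (SE 0.28) in overexpression and -0.24 (SE 0.28) in the knockdown. Exons of 12 of the 44 genes, among them Mcm7, Gins2, Rfc4, Fen1, Tk1 and Ccnd1, overlap a protein-coding gene on the opposite strand, so their counts can include its reads if strand was not used in counting.

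**Figure D2:**
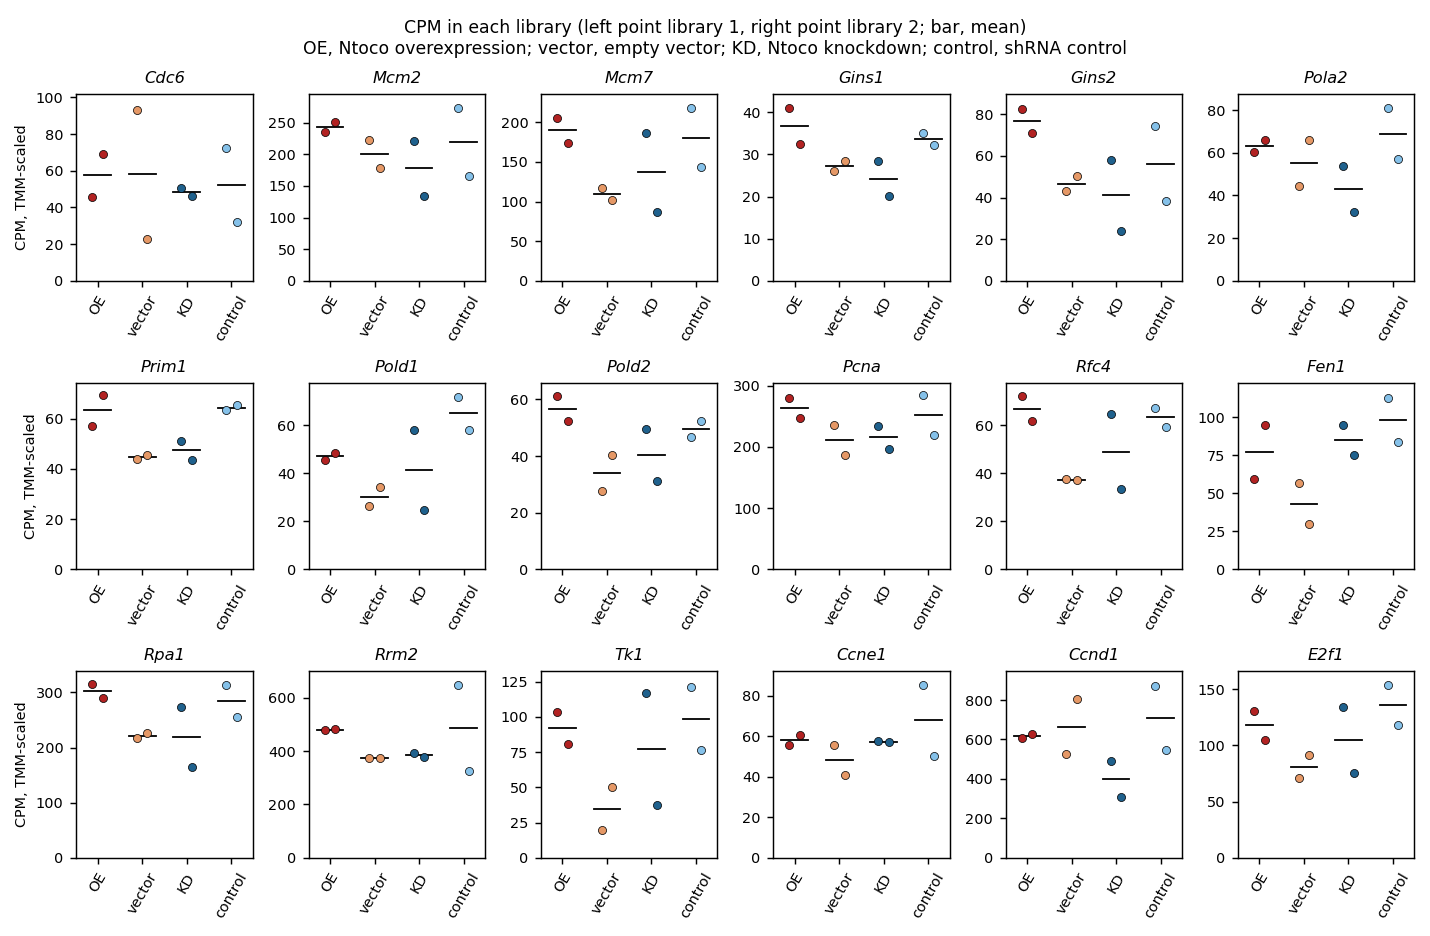
CPM of the 18 genes described in every library (vertical axis from 0, TMM-scaled; left point library 1, right point library 2, bar the group mean), with the Ntoco overexpression, empty vector, Ntoco knockdown and shRNA control groups from left to right in each panel. The vector libraries of Rfc4 and Tk1 lie under both overexpressing libraries, and the knockdown libraries of Ccnd1 lie under both control libraries, while those of Cdc6 lie between them.

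The 2 control groups were also set against each other. In empty vector cells 36 of the 44 had a ratio below 0 against shRNA control (50.3% of all genes tested did), with a median of -0.26. For 21 of the 44 both vector libraries lay below both control libraries, where 26.5% of all genes did so, and for 1, Rfc1, above both, where 24.6% did. In edgeR 0 of 44 passed (background 0%, lowest adjusted p 0.350), and 8 were lower and 0 higher at an unadjusted p under 0.05, where 6.1% of all genes were lower and 6.45% higher. The 8 in edgeR were Mcm5, Prim1, Pold1, Rfc4, Fen1, Lig1, Tk1 and E2f1. DESeq2 called 0 of the 44, with 8 at that unadjusted level. Over the 12115 genes tested it called 281, with 1738 at that level. Tk1 had the lowest ratio, -1.50 (SE 0.59), then Lig1 with -1.20 (SE 0.43) and Fen1 with -1.19 (SE 0.36). This comparison shares its vector libraries with the overexpression comparison and its control libraries with the knockdown one. The median was -0.06 without control library 1 and -0.46 without control library 2.

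The difference between the overexpression and the knockdown effect, tested in the same model, had a median of 0.66 over the 44 genes, beside -0.02 over all genes tested, and lay above 0 for 43 of them, as for 48.4% of all genes. In edgeR 0 passed the adjusted threshold (background 0%, lowest adjusted p 0.650), and 10 were higher and 0 lower at an unadjusted p under 0.05, where 3.57% of all genes were higher and 3.35% lower. DESeq2 called 0 of the 44, with 11 at that level. Over the 12115 genes tested it called 11, with 1027 at that level. Tk1 had the largest difference, 1.75 (SE 0.83), and Prim1 the lowest unadjusted p, 0.00835, with a difference of 0.94 (SE 0.27, edgeR adjusted p 0.650). The median was 0.44 without knockdown library 2 and 0.94 without knockdown library 1. This difference is made from the overexpression and knockdown ratios given above, so its signs are no separate result. It also takes in the difference between the 2 control groups. Vector over shRNA control had a median of -0.26, with 36 of the 44 below 0 and 8 above.

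The libraries of a group did not lie equally close together in these genes. The median absolute difference between the 2 libraries over the 44 genes, on the log2(CPM + 0.5) scale, was 0.15 in the overexpression group, 0.32 in the vector group, 0.50 in the knockdown group and 0.38 in the control group, beside 0.24, 0.31, 0.38 and 0.24 over all genes tested. In the knockdown group library 1 was the higher for 40 of the 44 genes, and in the control group library 1 was the higher for 41, while it was the higher for 20 in the overexpression group and 24 in the vector group. Differences above 1, that is over a factor of 2, occurred for 7 genes in the knockdown, 4 in the vector group, 2 in the control and 0 in the overexpression group. Control library 1 had the highest value of all 8 libraries for 20 of the 44 genes, and knockdown library 2 the lowest for 24. In the vector group the genes split: Cdc6 had 93.3 CPM in library 1 and 22.8 CPM in library 2, Ccne2, which encodes cyclin E2, 60.1 and 21.6 CPM, and Gins3 24.0 and 10.8 CPM, whereas Tk1 had 19.6 CPM in library 1 and 50.3 CPM in library 2.

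**Figure D3:**
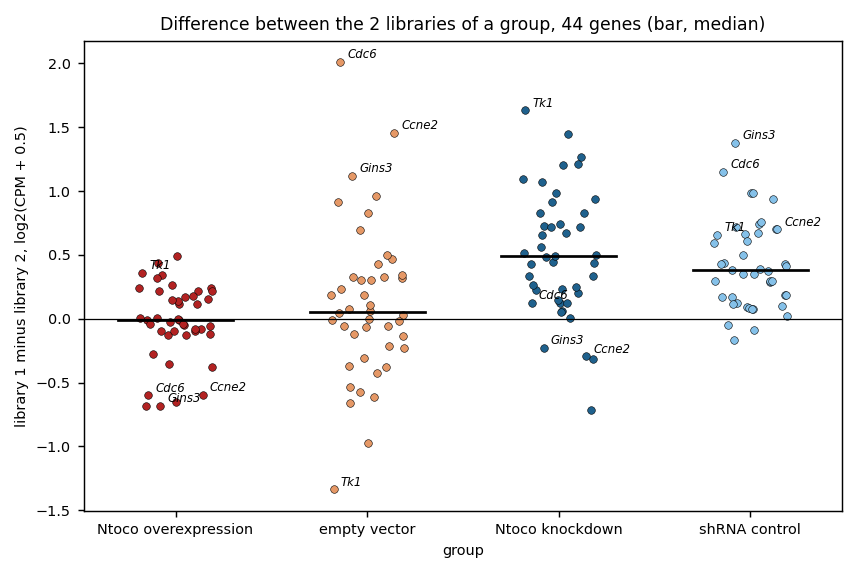
Library 1 minus library 2 of each of the 44 genes within each group, on the log2(CPM + 0.5) scale (points, genes; bar, median; groups on the horizontal axis). Nearly all knockdown and control points lie above 0. The overexpression points lie between -0.68 (Gins3) and 0.50 (Rfc5), and Cdc6 and Tk1 mark the ends of the vector group.

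**Figure D4:**
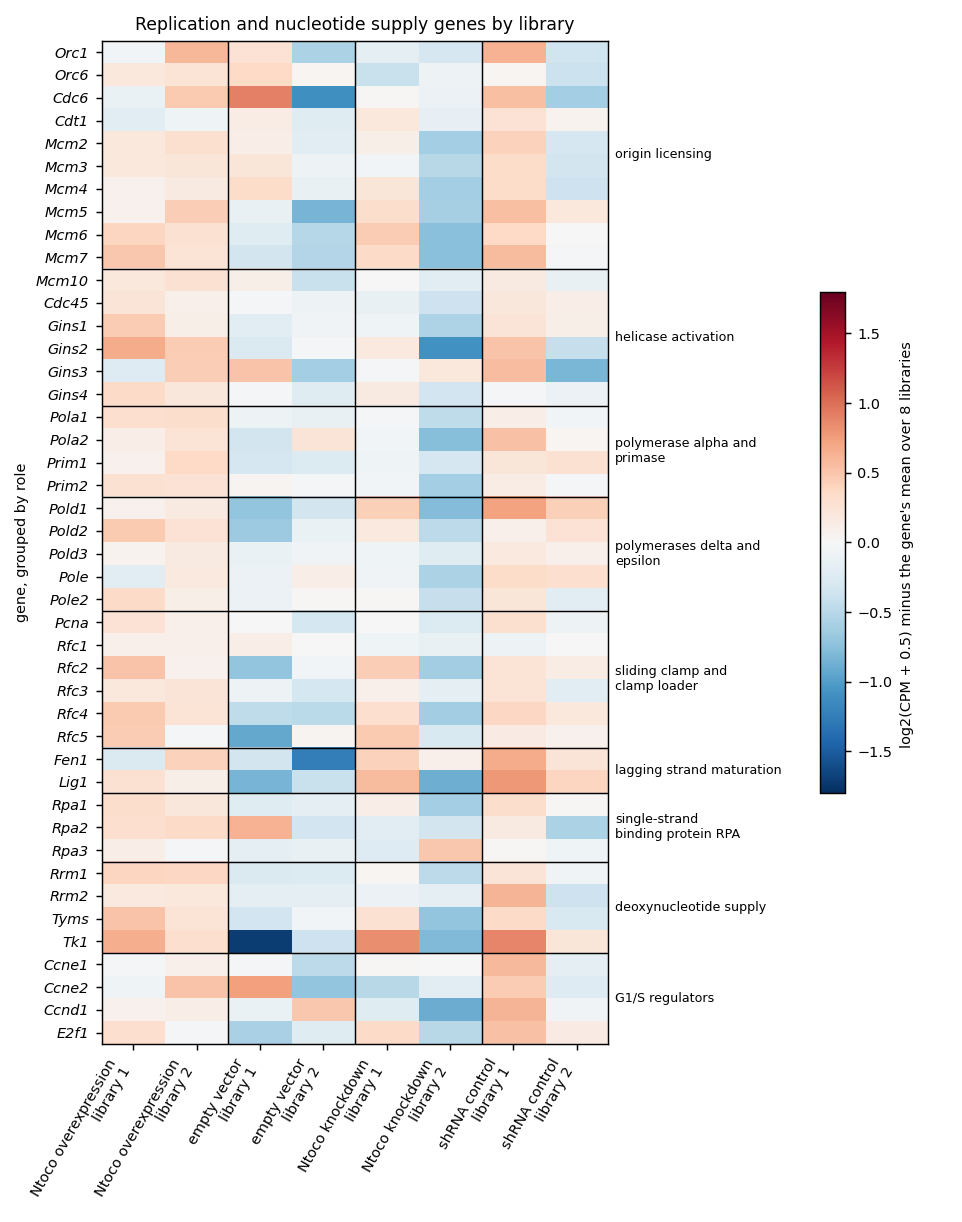
Level of each of the 44 genes (rows, grouped by role) in each of the 8 libraries (columns), as log2(CPM + 0.5) minus the mean of that gene over the libraries, red above and blue below. Knockdown library 2 is mostly blue and control library 1 mostly red, and both overexpression columns are pale red for most genes.

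The heat map shows the 44 genes by library and role. Role medians of control library 2 lay between -0.32 for licensing and 0.31 for lagging strand maturation, and those of knockdown library 1 between -0.20 for RPA and 0.50 for lagging strand maturation, on the same centred scale. The median over the 44 genes of the centred level was 0.19 and 0.24 in overexpressing libraries, -0.12 and -0.21 in vector libraries, 0.02 and -0.46 in knockdown libraries and 0.33 and -0.04 in control libraries. For 35 mitosis genes it was 0.44 and 0.24 in overexpressing libraries, -0.87 and -0.06 in vector libraries, 0.23 and -0.68 in knockdown libraries and 0.54 and 0.13 in control libraries. For the 6 fibroblast markers that passed the filter it was -0.16 and -0.21, -0.72 and -0.08, 0.86 and -0.54, and 0.23 and 0.44 in the same order of libraries, and their part in the results was not tested.

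**Figure D5:**
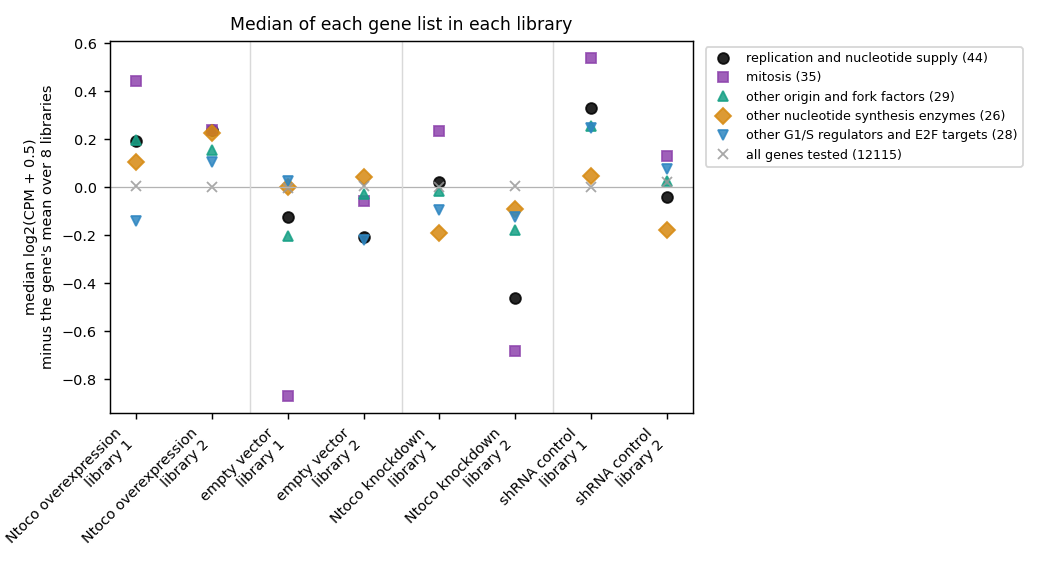
Median of each gene list in each library, as log2(CPM + 0.5) minus the mean of each gene over the 8 libraries (vertical axis), libraries along the horizontal axis and list sizes in the legend. The 44 replication and nucleotide supply genes and the 35 mitosis genes are lowest in knockdown library 2 and in the vector libraries, with mitosis at -0.87 in vector library 1, and all genes tested stay near 0.

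Genes that surround the 44 in the pathway were taken from 4 further lists. Beside their counts stand the shares of all genes tested that were non-overlapping, 24.1% higher and 23.1% lower in overexpression and 15.1% higher and 14.1% lower in the knockdown. All 35 mitosis genes had ratios above 0 in overexpression (median 0.77, 26 non-overlapping and higher, 0 lower) and all 35 below 0 in the knockdown (median -0.48, 11 non-overlapping and lower, 0 higher). Vector over shRNA control also had all 35 below 0, with a median of -0.74. There 22 were non-overlapping and lower, where 26.5% of all genes were, and 0 higher. The overexpression ratios share these vector libraries, and what set them apart from the control libraries was not tested. The kinesin gene Kif20a had an overexpression ratio of 1.46 (SE 0.53) and Aurkb, which encodes a chromosomal passenger kinase, 1.07 (SE 0.54). In the knockdown Foxm1, a transcription factor of mitotic genes, had -0.88 (SE 0.51) and the separase gene Espl1 -0.87 (SE 0.29). Of 29 other origin and fork factors, 14 were non-overlapping and higher and 1 lower in overexpression (median 0.21), and 2 higher and 9 lower in the knockdown (median -0.21). In that list Chtf18, of an alternative clamp loader, had the largest overexpression ratio, 1.40 (SE 0.64), then the RNase H2 subunit gene Rnaseh2c with 0.97 (SE 0.39). In the knockdown the helicase gene Recql4 had -0.84 (SE 0.35) and the histone chaperone gene Asf1b -0.74 (SE 0.23).

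Of 26 other enzymes of nucleotide synthesis, 10 were non-overlapping and higher and 2 lower in overexpression, with a median of 0.08, and 1 was higher and 4 lower in the knockdown, with a median of -0.03. Dck, the deoxycytidine kinase gene, had an overexpression ratio of 0.51 (SE 0.24) and Paics, of purine synthesis, 0.50 (SE 0.24). In the knockdown Cad, of pyrimidine synthesis, had -0.55 (SE 0.20) and Mthfd1, of folate metabolism, -0.38 (SE 0.20). Of 30 other G1/S regulators and E2F targets 28 passed the filter, of which 9 were non-overlapping and higher and 4 lower in overexpression (median 0.07), and 0 higher and 7 lower in the knockdown (median -0.23). Cdkn2c, which encodes the Cdk4 and Cdk6 inhibitor p18, had the largest overexpression ratio of that list, 1.59 (SE 0.51), and the cyclin A2 gene Ccna2 had 0.87 (SE 0.41). In the knockdown E2f2 had -0.76 (SE 0.39) and the Cdk inhibitor gene Cdkn1c -0.75 (SE 0.32). Of the 118 genes of these 4 lists that were tested, edgeR called 0 in either comparison (lowest adjusted p 0.598 in overexpression and 0.992 in the knockdown), with 15 higher and 2 lower at an unadjusted p under 0.05 in overexpression and 0 higher and 8 lower in the knockdown. DESeq2 called 0 of these genes in both comparisons, with 22 at an unadjusted p under 0.05 in overexpression and 7 in the knockdown. Over the 12115 genes tested, edgeR had 3.53% higher and 4.09% lower at that level in overexpression, and 1.51% higher and 1.61% lower in the knockdown. DESeq2 had 1089 of the 12115 at that level in overexpression and 436 in the knockdown.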

How the data were processed

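HT22 RNA was sequenced from 4 groups of 2 libraries, made per the labels with a stranded kit for polyadenylated RNA. The files the authors deposited hold raw whole-number counts for each gene and FPKM values that equal the count per gene length and per total of listed counts (within a relative tolerance of 0.01 for 12615 of 12615 genes counted in all libraries). The build mm10 (GRCm38) and the tools HTSeq, HISAT2, Trimmomatic, Cufflinks and DESeq are named in the submitters' processing notes. Tool versions, and whether reads were counted by strand, were not given in the sources used here. The role written in each column's name decided its group, and 0 columns were left out.

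Genes of low count were removed by filterByExpr of edgeR (minimum count 10), and counts were scaled with TMM factors and tested in 1 model of the 4 groups with the quasi-likelihood F-test of edgeR (4 residual and 3.85 prior degrees of freedom, biological coefficient of variation 28%). The Benjamini-Hochberg adjustment covered the 12115 tested genes, at a threshold of 0.05. CPM values are TMM-scaled, except the summed CPM of the cell type marker lists, which are scaled by total counts alone. Apart from those lists, levels are compared between genes only as FPKM. At the depth given above, the spread between libraries and not counting error sets the precision. Versions were DESeq2 1.42.0, edgeR 4.0.16, limma 3.58.1 (R 4.3.3), Python 3.11.15, pandas 2.3.3, numpy 2.4.6 and matplotlib 3.10.9.

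Non-overlap means that both libraries of a group lie above, or below, both of the other. Values in every library are given for the member with the largest absolute ratio among the non-overlapping ones in each role, for each of the overexpression and knockdown comparisons, and in any case for Mcm2, Cdc6, Pcna, Rrm2, Tk1, Ccne1, Ccnd1 and E2f1; in the other lists, for each comparison, the 2 largest non-overlapping ratios are named. The members, the other lists, the tests and the naming rule were chosen with earlier results of these data known. Entrez identifiers, coordinates (1-based) and promoter windows are from RefSeq, GRCm38.p6, in which 44 of 44 members matched by identifier and 35 had a window; exon overlaps are from GENCODE M21. Alternatives were other size factors (RLE, upper quartile), no filter, DESeq2's Wald test, fits of only the groups compared, a block for the library number and leaving out each library.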

Additional observations from a re-analysis of the deposited data

How the results depend on the processing

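Across all alternatives run (RLE and upper-quartile factors, no filter on low counts, DESeq2, only the groups compared, the library number as a block, and each library left out), 0 of the 44 genes passed the adjusted threshold in any comparison; the difference between effects could not be fitted on fewer than 4 groups. For the block, same-numbered libraries deviated together with correlations between -0.362 and 0.355, so the numbers were not taken as pairs; with the replicate block 0 members were called, and 0 with the vector numbers crossed, an alternative added after seeing the data. Upper-quartile factors turned the 1 gene non-overlapping and higher in vector over shRNA control cells into 0. Without any 1 library, the median ratio lay between 0.33 and 0.45 in overexpression, -0.56 and -0.04 in the knockdown, -0.46 and -0.063 in vector over shRNA control and 0.44 and 0.94 for the difference; non-overlapping genes then numbered 31 to 40 higher and 0 to 9 lower in overexpression (33.2% to 41.2% and 32.0% to 40.1% of all genes), 0 to 7 and 11 to 37 in the knockdown (26.1% to 38.5% and 26.9% to 39.3%), and 0 to 10 and 21 to 38 in vector over control (34.6% to 39.6% and 37.2% to 41.2%), since fewer libraries make overlap rarer. Of the 18 genes described in every library, 15 kept their sign under all alternatives in overexpression, 8 in the knockdown, 13 in vector over control and 17 for the difference. Cdc6 turned to 0.028 in overexpression with upper-quartile factors and to 0.27 with the replicate block, which also turned its knockdown ratio to 0.0042; the block changed no call. Leaving out 1 library gave, in overexpression, -0.70 to 1.34 for Cdc6, -0.056 to 0.52 for Pola2 and -0.38 to 0.23 for Ccnd1. In the knockdown it gave -0.58 to 0.58 for Cdc6, -1.24 to 0.094 for Gins2, -1.41 to 0.25 for Tk1, -0.72 to 0.10 for Mcm2, -0.76 to 0.24 for Rrm2, -0.58 to 0.18 for Ccne1, -0.41 to 0.028 for Fen1, -1.06 to 0.045 for Mcm7, -0.67 to 0.0017 for Pold2 and -0.93 to 0.028 for Rfc4. In vector over control it gave -1.20 to 0.84 for Cdc6, -0.43 to 0.28 for Ccnd1, -0.67 to 0.28 for Gins2, -0.45 to 0.27 for Mcm2 and -0.80 to 0.19 for Rrm2, and for the difference -0.60 to 1.45 for Cdc6. The cause of these turns was not tested.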

Other observations

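Of 7 astrocyte markers 5 passed the filter on low counts, and the list summed to 102 to 105 CPM in overexpressing libraries, 40.4 to 78.9 CPM in vector libraries, 48.9 to 112 CPM in knockdown libraries and 111 to 113 CPM in shRNA control libraries. The vector libraries and the lower knockdown library, which were also low in the replication genes, were low here. Gja1, Aldh1l1 and S100b made up nearly all of this sum, while Gfap and Slc1a2 had at most 1.23 and 1.25 CPM. Of 8 microglia and macrophage markers 4 passed, with 11.3 to 11.8, 13.0 to 14.7, 15.5 to 16.8 and 18.9 to 19.5 CPM in the same order of groups, and Aif1, Ptprc and Itgam had under 10 counts in every library. Of 7 oligodendrocyte lineage markers 3 passed, with 16.8 to 17.2, 11.5 to 17.6, 14.4 to 22.6 and 18.8 to 19.6 CPM, and Mog and Sox10 had under 10 counts in every library. Of 7 endothelium and pericyte markers 3 passed, with 147 to 245, 150 to 401, 149 to 227 and 201 to 312 CPM. Cspg4 made up nearly all of that sum, while Cdh5 and Tek had at most 0.80 and 1.78 CPM. Pecam1, Kdr and Rgs5 had under 10 counts in every library. The part of these lists in the results was not tested.

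In vector over shRNA control cells, the naming rule picked Chtf18 (log2 ratio -1.90, SE 0.65) and Ticrr, an origin firing factor (-0.74, SE 0.25), Mthfd1 (-0.63, SE 0.20) and Rrm2b, the p53-inducible reductase subunit (0.59, SE 0.38), Cdkn2c (-2.03, SE 0.51) and E2f8, a repressive E2F (-1.30, SE 0.37), and the passenger complex genes Aurkb (-1.54, SE 0.55) and Incenp (-1.48, SE 0.33). Cdkn2c had 22.0 and 24.8 CPM in vector libraries and 108 and 83.5 CPM in control libraries, and 78.5 and 62.4 CPM in overexpressing libraries and 118 and 33.4 CPM in knockdown libraries. In this comparison edgeR called 0 of the 118 genes of the 4 other lists, with 4 higher and 23 lower at an unadjusted p under 0.05, and DESeq2 called 3, with 32 at that level. Over all 12115 genes tested edgeR called 0, with 6.45% higher and 6.1% lower at that level, and DESeq2 called 281, with 1738 at that level.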
